A study of Mus musculus with 10 samples.

Results

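The insulin-like growth factor (IGF) system was followed in the pressure-overloaded mouse left ventricle through 10 genes, the growth factors Igf1 and Igf2, the receptors Igf1r and Igf2r, and the binding proteins Igfbp2, Igfbp3, Igfbp4, Igfbp5, Igfbp6 and Igfbp7. Probes were matched by gene symbol, and every probe that carries one of these symbols was taken, which gave 12 of the 26423 probes of the array. Igf1 and Igfbp7 had 2 probes each and the other genes had 1. All 12 were among the 19976 probes that remained after a filter on low values, and 9 of the 12 were found on all 10 arrays. The mice were male C57BL/6J mice, 8 weeks old and of 20 to 25 g, that underwent either transverse aortic banding (TAB), a surgical narrowing of the aorta, or a sham operation. RNA of the left ventricle was taken on day 3, 5, 7, 14 or 28, with 1 TAB and 1 sham sample per day, and how many mice a sample held is not stated in the sources used here. The labels of 1 TAB sample disagree, with 15 days in one and 14 in its title, and it was taken as day 14.

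IGF-1 and IGF-2 are secreted peptides that signal growth and survival through the receptor tyrosine kinase IGF1R, whereas IGF2R takes up and clears IGF-2. In tissue most IGF is held by IGF binding proteins, which can keep the ligand from the receptor or carry it, and which proteases cut to release it. IGFBP7 binds IGF weakly and is known mainly as a secreted matrix protein of vessels and stroma. In the heart, IGF-1 signalling through PI3K and AKT is known as a pathway of physiological growth.

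Probes of 1 ligand and of 2 binding proteins were called higher in TAB. Igf1, Igfbp7 and Igfbp2 were higher in TAB as a mean over the 5 days, by 2.73-fold, 2.43-fold and 2.29-fold. For Igfbp2 this is over sham values not well above background. No gene of the system was called lower. The other ligand, both receptors and the remaining binding proteins were not called. Over all probes, 7.47% were called higher and 6.73% lower in TAB. Igfbp7 was called on the brighter of its 2 probes only. None of the 3 genes stayed called when day 3, day 5 or day 7 was left out. The promoters of the 3 called genes are shown because these genes were higher together. They are the 250 bases before the annotated start of transcription on the gene's own strand, from RefSeq on GRCm38.p6, and for Igfbp2 the upstream one of its 2 annotated starts. Capitals mark, on either strand, the GC box GGGCGG, the CCAAT box CCAAT, the TATA box TATAAA and the AP-1-like pattern TGANTCA. N is any base, so the pattern is looser than an AP-1 site. The marks do not overlap each other here. Igf1 lies at chr10:87860861-87861110 (+), Igfbp7 at chr5:77408046-77408295 (-) and Igfbp2 at chr1:72824230-72824479 (+).
Igf1: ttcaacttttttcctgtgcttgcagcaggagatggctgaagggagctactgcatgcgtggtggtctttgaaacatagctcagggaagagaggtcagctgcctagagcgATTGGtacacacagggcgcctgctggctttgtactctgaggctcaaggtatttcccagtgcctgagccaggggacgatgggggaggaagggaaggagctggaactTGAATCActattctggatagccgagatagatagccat
Igfbp7: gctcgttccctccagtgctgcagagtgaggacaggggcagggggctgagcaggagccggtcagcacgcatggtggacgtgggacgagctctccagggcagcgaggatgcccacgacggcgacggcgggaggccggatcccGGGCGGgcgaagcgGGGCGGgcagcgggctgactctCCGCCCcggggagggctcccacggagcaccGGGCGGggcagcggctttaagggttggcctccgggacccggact
Igfbp2: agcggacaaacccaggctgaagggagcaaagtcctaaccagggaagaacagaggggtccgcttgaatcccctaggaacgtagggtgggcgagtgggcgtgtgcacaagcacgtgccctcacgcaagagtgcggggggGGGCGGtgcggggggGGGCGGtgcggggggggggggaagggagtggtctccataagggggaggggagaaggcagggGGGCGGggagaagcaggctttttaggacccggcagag
The windows of Igfbp7 and Igfbp2 hold 4 and 3 GC boxes and are rich in G and C, at 74.0% and 67.2%, against a median of 52.4% over all promoter windows of this length. A GC box was present in 32.7% of the 32851 windows. The Igf1 window holds no GC box, and has 1 CCAAT box, present in 33.8% of windows. It also has 1 match to TGANTCA, reading TGAATCA, 37 bases before the start, and 6.75% of windows have such a match. None of the 3 windows holds TATAAA, which 12.4% of windows do. The second annotated Igfbp2 promoter holds 1 match to TGANTCA, reading TGAGTCA, 39 bases before its start, and no GC box. Of the 10 genes, 5 have a GC box in at least 1 of their windows, among them Igf1r, Igf2r and Igf2, which were not called. These matches are descriptions of letters and not of binding.

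Each mRNA sample was read in 1 colour on a Mouse Whole Genome OneArray, and the values below are normalized intensities, in arbitrary units, after median scaling and quantile normalization of the 10 arrays. Median raw intensities ranged from 34 to 57 across arrays. A negative flag was carried by 40.2% to 47.3% of spots, depending on the array. The meaning of this flag is not given, and it was assumed here to mark spots not found, and so not well above background. All statements on found spots and on background rest on this assumption. The flag was no plain intensity cut-off. On the TAB array of day 3 the lowest found raw intensity was 1, while the dimmer Igfbp7 spot, at 3, was not found. Probes differ in brightness, so levels were compared only within a probe. No spot of the 12 probes was saturated. As a check of the operation, the natriuretic peptide genes Nppa and Nppb and the skeletal actin gene Acta1, which rise in overloaded heart muscle, were higher in TAB by a mean log2 ratio of 1.81, 1.67 and 1.76 (adjusted p = 0.0143, 0.0327 and 0.00548 from limma). Nppb overlapped between the groups, with a log2 ratio of 0.17 on day 14. With 1 day left out, Acta1 was called in 5 of 5 fits, Nppa in 2 and Nppb in 1. Cardiomyocyte markers were found on every array and none was called. Tnni3 and Ryr2 were lower in TAB on 5 of 5 days, with mean log2 ratios of -0.44 and -0.36 (adjusted p = 0.0646 and 0.0906 from limma). The mean was -0.14 for Tnnt2 and Myh6, 0.11 for Actc1 and 0.02 for Myl2. Of the 6 probes that of Myl2 was saturated on 9 arrays and could hardly show a change. Atrial markers were not at background in these ventricular samples, and the TAB and sham arrays of day 14 differed most in them, with log2 ratios of -2.76 for Sln and -2.24 for Myl7. A difference on a single day has no replicate, so the test used the 5 days as replicates of an average TAB effect, with day as a block, and its p-values were adjusted over all 19976 probes. They measure the spread between days, which holds time after surgery and array noise alike. In a whole-tissue sample, a change in the number of cells of a type and a change in RNA per cell cannot be told apart.

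**Figure D1:**
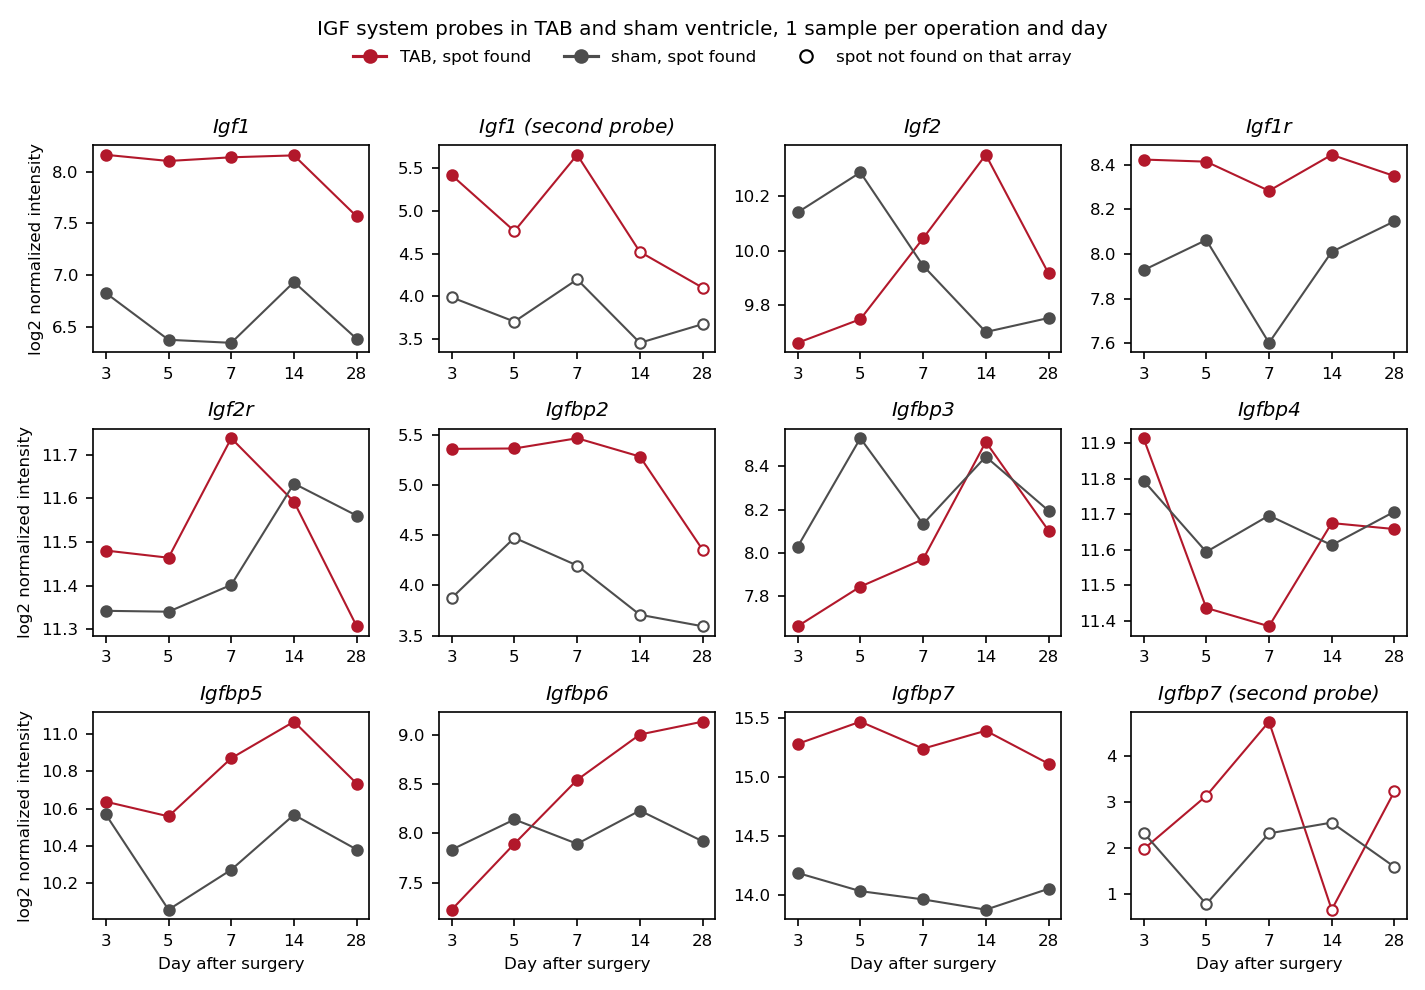
Normalized intensity on the log2 scale of the 12 IGF system probes by day after surgery, for TAB (red) and sham (grey), with 1 sample per point and open circles for spots not found on that array. The vertical scale differs between panels. TAB lies above sham on every day for Igf1, Igfbp2, Igfbp5, Igf1r and the bright Igfbp7 probe, and the TAB values of Igfbp6 rise from 149 on day 3 to 564 on day 28 on the linear scale.

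Among the ligands, Igf1 was higher in TAB and Igf2 was not called. The first Igf1 probe read 287, 275, 282, 286 and 190 in TAB and 114, 83.1, 81.4, 122 and 83.6 in sham on days 3, 5, 7, 14 and 28. All TAB values were above all sham values, and the TAB value of day 28 stood below the other 4 TAB values, which lay close together. The groups did not overlap in this direction for 8.78% of all probes and in the other direction for 7.59%. The log2 ratio was 1.33, 1.73, 1.79, 1.22 and 1.18 on the 5 days, and its mean of 1.45 (SE 0.14, 95% interval 1.11 to 1.79, adjusted p = 0.0139 from limma) was a 2.73-fold difference, higher on 5 of 5 days. Over all probes, 7.47% were called higher and 6.73% lower in TAB, and 4 of the 12 IGF system probes were called higher and 0 lower. The share of higher probes among all calls was 52.6%, and it was 66.4% after median scaling alone and 65.5% after normalization within each operation. The median of the mean log2 ratio was 0.42 over the 12 probes and -0.05 over all probes tested.

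The second Igf1 probe was dim, found on 2 TAB arrays, those of days 3 and 7, and on no sham array. It read 42.7, 27.1, 50.4, 22.9 and 17.2 in TAB and 15.9, 13, 18.4, 11 and 12.8 in sham. TAB was above sham on each day, while the TAB value of day 28 lay within the sham range. Its mean log2 ratio was 1.09 (adjusted p = 0.0239 from limma), with all 5 sham values and 3 of the 5 TAB values not well above background, and 0.34 with 50 added before log2 (adjusted p = 0.0260 from limma). This call was lost with probes below 1 set to 1 (adjusted p = 0.0594 from limma). Both probes of Igf1 pointed the same way.

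Igf2, the fetal growth factor, read 809, 859, 1056, 1307 and 966 in TAB and 1129, 1250, 985, 832 and 862 in sham. TAB was below sham on days 3 and 5 and above it on days 7, 14 and 28, so the groups overlapped. Averaged over the days, the log2 ratio was -0.02 (95% interval -0.51 to 0.47, adjusted p = 0.957 from limma). The sign of this mean was positive, at 0.08, after median scaling alone and after normalization within each operation. The ratio of days 14 and 28 exceeded that of days 3 to 7 by 0.72 on the log2 scale (95% interval -0.07 to 1.5, unadjusted p = 0.0668, adjusted p = 0.501 from limma), which is not a call. H19, the noncoding RNA that shares an imprinted domain with Igf2, had a mean log2 ratio of 0.59 (adjusted p = 0.0622 from limma).

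The receptors were not called. Igf1r, the signalling receptor, read 343, 341, 312, 348 and 326 in TAB and 243, 267, 194, 258 and 283 in sham. All TAB values were above all sham values, and the spread was smaller in TAB, with an SD of 0.07 on the log2 scale against 0.21 in sham. The mean log2 ratio was 0.43 (SE 0.11, 95% interval 0.16 to 0.71, adjusted p = 0.0529 from limma), a 1.35-fold difference, higher on 5 of 5 days. Igf1r was called under 9 of 11 other settings of the analysis that kept all days, and in 0 of 5 fits with 1 day left out.

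Igf2r, the clearance receptor, read 2858, 2825, 3416, 3088 and 2534 in TAB and 2596, 2593, 2706, 3179 and 3021 in sham. TAB was above sham on 3 days and below it on days 14 and 28. On average the log2 ratio was 0.06 (95% interval -0.24 to 0.36, adjusted p = 0.770 from limma). An average difference larger than 0.36 on the log2 scale lies outside this interval.

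**Figure D2:**
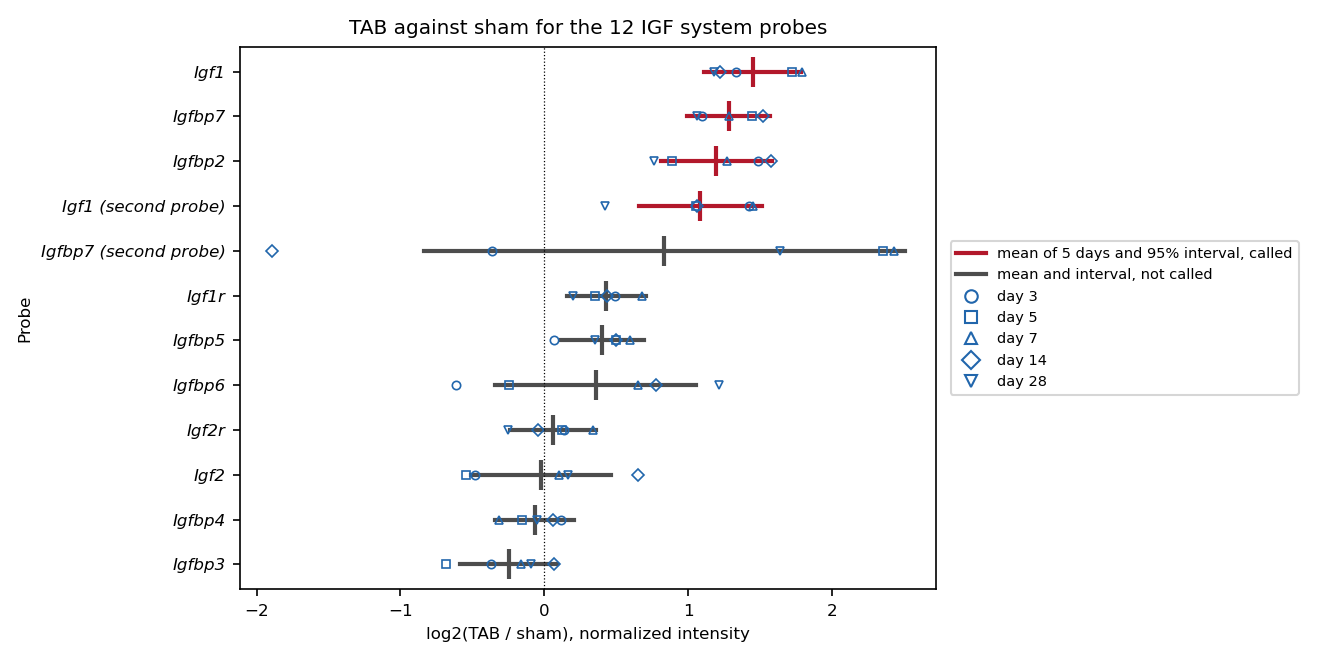
Log2 ratio of TAB over sham for each of the 12 IGF system probes, with the mean of the 5 days as a vertical tick, its 95% interval from limma as a bar, and each day as an open symbol. Red bars are probes with an adjusted p under 0.05, which are both Igf1 probes, Igfbp2 and the bright Igfbp7 probe. The dim Igfbp7 probe spreads from -1.90 to 2.43 over the days.

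Among the binding proteins, Igfbp7 was higher in TAB on its bright probe. That probe read 39884, 45489, 38781, 43125 and 35487 in TAB and 18626, 16728, 15932, 14993 and 16961 in sham. All TAB values were above all sham values, and within each operation the days differed by at most 1.28-fold in TAB and 1.24-fold in sham. The mean log2 ratio was 1.28 (SE 0.12, 95% interval 1.00 to 1.57, adjusted p = 0.0139 from limma), a 2.43-fold difference, higher on 5 of 5 days with log2 ratios between 1.07 and 1.52. No spot of this probe reached saturation, with raw intensities of up to 40427.

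The second Igfbp7 probe was close to background, so it can neither repeat nor contradict the bright probe. It was found on 1 array, TAB of day 7, and read 3.93, 8.79, 26.9, 1.58 and 9.41 in TAB and 5.06, 1.72, 5.00, 5.88 and 3.01 in sham. The groups overlapped and the ratio changed sign between days, with a mean log2 ratio of 0.83 (95% interval -0.84 to 2.51, adjusted p = 0.442 from limma). This mean lay between 0.43 and 1.52 with 1 day left out, and was 0.14 with 50 added before log2. The rule of the study, which takes for each gene the probe whose log2 ratios, added up without their sign, are largest, selects this dim probe for Igfbp7, and at the gene level Igfbp7 was then not called. With the mean of both probes it had a mean log2 ratio of 1.06 and an adjusted p of 0.0817 from limma.

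Igfbp2, a binding protein found in plasma and in growing tissue, was dim. It read 41.1, 41.2, 44.3, 39.0 and 20.5 in TAB and 14.7, 22.2, 18.4, 13.1 and 12.1 in sham. The spot was found on the TAB arrays of days 3 to 14 and on no sham array. The first 4 TAB values were above every sham value, and TAB on day 28 fell within the sham range. Its mean ratio was 2.29-fold (adjusted p = 0.0178 from limma), higher on 5 of 5 days, over sham values not well above background. With 50 added before log2 the mean log2 ratio fell from 1.20 to 0.40 (adjusted p = 0.0107 from limma).

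Igfbp5, a binding protein abundant in muscle and bound to matrix, read 1593, 1509, 1873, 2146 and 1704 in TAB and 1520, 1066, 1237, 1518 and 1334 in sham. TAB was above sham on every day, although the ranges overlapped at the sham values of days 3 and 14. The average log2 ratio of Igfbp5 was 0.40 (SE 0.12, 95% interval 0.12 to 0.69, adjusted p = 0.0698 from limma). It was called under 6 of the 11 other settings and in 0 of 5 fits with 1 day left out.

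Igfbp6, which binds IGF-2 with preference, changed order with time. It read 149, 238, 374, 515 and 564 in TAB and 228, 283, 238, 301 and 242 in sham. TAB was lower than every sham value on day 3 and higher than every sham value from day 7 on. The TAB value rose at every step of the days, by 3.77-fold from day 3 to day 28, which held for 2.36% of all probes, whereas sham on day 28 was 1.06 times its value on day 3. As a mean over the days, the log2 ratio was 0.36 (95% interval -0.34 to 1.06, adjusted p = 0.432 from limma). The ratio of days 14 and 28 exceeded that of days 3 to 7 by 1.07 on the log2 scale (95% interval -0.05 to 2.18, unadjusted p = 0.0575, adjusted p = 0.490 from limma), so the change of order was not called.

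Igfbp3, the main carrier of IGF in plasma, read 203, 230, 251, 365 and 275 in TAB and 261, 370, 281, 349 and 293 in sham. TAB was lower on 4 of 5 days, day 14 being the exception, and the ranges overlapped. Its mean log2 ratio was -0.25 (95% interval -0.59 to 0.09, adjusted p = 0.266 from limma). The TAB value rose from day 3 to day 14 at each step.

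Igfbp4, a binding protein cut by the protease PAPP-A, read 3859, 2771, 2673, 3270 and 3232 in TAB and 3553, 3091, 3319, 3132 and 3344 in sham. TAB was lower on 3 of 5 days, and its values reached both above and below the sham range. For Igfbp4 the mean log2 ratio was -0.07 (95% interval -0.34 to 0.20, adjusted p = 0.715 from limma), with a sign that was positive, at 0.06 and 0.05, after median scaling alone and after normalization within each operation. The 7 genes not called therefore range from Igfbp3 at -0.25 to Igf1r at 0.43 as a mean log2 ratio.

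No probe of the system was called for a difference between early and late days. For the difference between days 14 to 28 and days 3 to 7, 0% of all probes were called, with a lowest adjusted p of 0.227 from limma, and 2086 of the 19976 had an unadjusted p under 0.05. None of the 12 IGF system probes did. The ratio of Igf1 was lower on the late days by 0.41 on the log2 scale (95% interval -1.01 to 0.18, adjusted p = 0.553 from limma), and that of the bright Igfbp7 probe differed by 0.02 (95% interval -0.61 to 0.65, adjusted p = 0.985 from limma).

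By the rule of the study for a single day, a probe is DE when its log2 ratio is more than 2 SDs of all ratios of that day from 0, which was 1.75, 1.87, 1.71, 1.46 and 1.38 on days 3, 5, 7, 14 and 28. Igf1 was DE on day 7 with 1.79, and Igfbp7 and Igfbp2 were DE on day 14 with 1.52 and 1.58. The dim Igfbp7 probe was up on days 5, 7 and 28 and down on day 14. These are 6 up and 1 down of 60 values, and 4 of the 7 belong to the probe that was found on 1 array. Over all probes the share DE up was 3.07%, 3.77%, 3.71%, 3.29% and 3.36% on the 5 days, and the share DE down was 2.33%, 1.69%, 1.77%, 2.37% and 2.55%. The other 8 probes were DE on no day.

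The calls for Igf1, Igfbp7 and Igfbp2 depended on single days. Without day 3, day 5 or day 7 none of the 4 probes was called, with adjusted p-values between 0.0592 and 0.0894 from limma, and without day 14 the bright probes of Igf1 and Igfbp7 remained called while Igfbp2 (0.0519) and the second Igf1 probe (0.0586) did not. Over all probes the number called higher was then 13, 33, 21, 126 and 1455 without days 3, 5, 7, 14 and 28, against 1492 with all days. The mean log2 ratios themselves moved little, and lay between 1.37 and 1.52 for Igf1, 1.22 and 1.34 for Igfbp7 and 1.10 and 1.31 for Igfbp2 with 1 day left out.

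Markers of some cell types were also higher in TAB. All 7 measured macrophage and monocyte markers were called higher in TAB, with a mean log2 ratio between 0.86 for Csf1r and 2.01 for Cd68, and their summed intensity was 6853 to 16715 in TAB and 4499 to 5325 in sham. Without day 3, day 5 or day 7 none of these 7 calls remained, and with probes below 1 set to 1 only those of Cd14 and Itgam did (adjusted p = 0.0423 and 0.0485 from limma). Their median log2 ratio was 1.23, 1.59, 1.45, 1.07 and 0.68 on the 5 days. Of the fibroblast list, 5 of 7 genes had 7 kept probes, of which 3 were called higher, those of Postn (3.37) and Col1a2 (3.49) and 1 of 2 probes of Ddr2 (1.19), while Dcn and Tcf21 were not called. The summed intensity of this list, most of it from the bright Dcn and Postn probes, was 55085 to 75200 in TAB and 43933 to 48458 in sham. None of the 8 endothelial probes was called, and of the 4 smooth muscle and pericyte probes 1, Tagln, was called higher, at least 4.31-fold, with spots found on 4 TAB arrays and on no sham array. The plasma protein gene Apoa1 was lower in TAB by 0.98 on the log2 scale (adjusted p = 0.0264 from limma), Ttr was not called (0.30, adjusted p = 0.525 from limma), and the probe of Alb was below the filter. With 1 day left out, Postn was called in 4 of 5 fits, Col1a2 and Tagln in 2 (not without day 3, 5 or 7), and Ddr2 and Apoa1 in 1, and with probes below 1 set to 1 the calls of Ddr2, Tagln and Apoa1 were lost (adjusted p = 0.0684, 0.0778 and 0.0623 from limma). The part of these cells in the levels of Igf1, Igfbp7 and Igfbp2 was not tested.

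**Figure D3:**
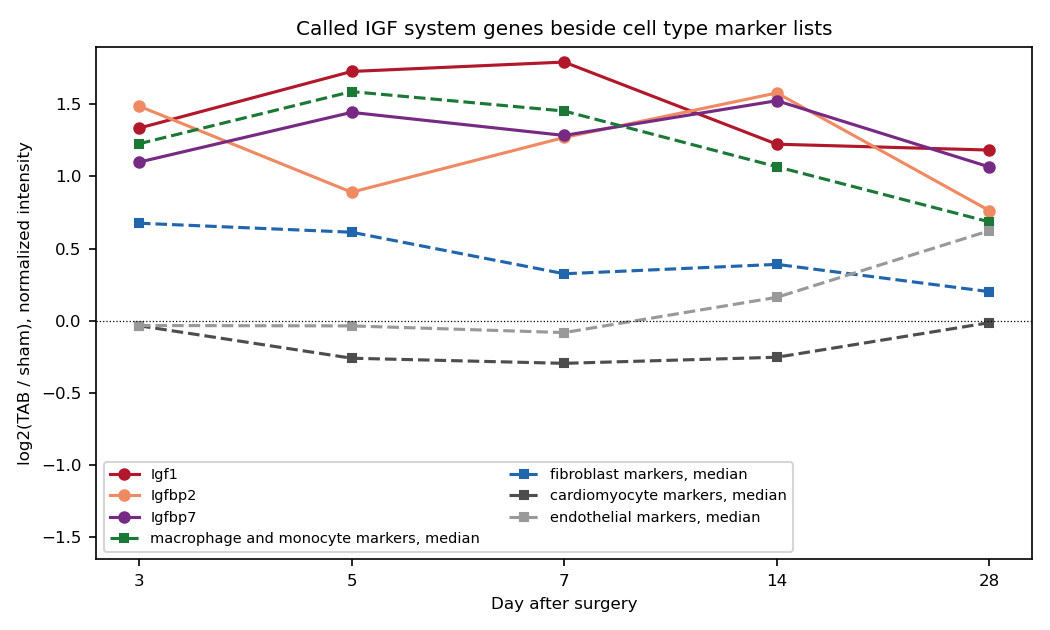
Log2 ratio of TAB over sham by day after surgery for Igf1, Igfbp2 and the bright Igfbp7 probe (solid lines, 1 probe each) and the median log2 ratio of 4 cell type marker lists (dashed lines). The macrophage and monocyte median falls from 1.59 on day 5 to 0.68 on day 28, and the cardiomyocyte median, which includes the saturated Myl2 probe, stays at or below 0.

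For the 9 member probes found on all arrays, the probes most like them over the 10 samples were taken among 12060 probes with a symbol that were also found on all arrays. Igfbp2 and the second probes of Igf1 and Igfbp7 were left out of this step. Pearson's r over 10 samples was highest for Igf1 with Meox1 (0.990), the collagen gene Col5a2 (0.986) and Mxra8 (0.985), which had mean log2 ratios of 2.29, 3.06 and 0.92. For Igfbp7 these were Ptgfrn (0.994), Ywhab (0.994) and Fam176b (0.990), with mean log2 ratios of 1.32, 0.39 and 0.84. For the members that were not called, the highest r lay between 0.864 for Igf2 and 0.973 for Igfbp6, whose nearest probe was Sri, a calcium-binding protein of muscle. The samples share the 2 operations and the normalization, and a high r is easily reached by the best of 12060 probes, so that these values are a description with no p.

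The wider IGF pathway was described with a list of 48 genes, of which 45 had 51 kept probes. Of these 51 probes 1 was called higher (1.96%) and 5 lower (9.80%), against 7.47% and 6.73% of all probes, and their median mean log2 ratio was -0.14. The growth hormone axis, which controls Igf1 in liver and in other tissues, held 2 of the 6. Ghr, the growth hormone receptor, had 3 probes with mean log2 ratios of -0.46, -0.47 and -0.48, of which the first was called (adjusted p = 0.0431 from limma) and the others were not (0.0901 and 0.0668). Socs2, an inhibitor of growth hormone signalling that the hormone itself induces, was higher by 0.57 (adjusted p = 0.0366 from limma) and did not overlap between the groups. Stat5a and Stat5b, its transcription factors, were not called.

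Downstream of the receptors, Grb14, an adaptor that inhibits the insulin receptor, was lower by 0.71 on the log2 scale (adjusted p = 0.0477 from limma) and was the 1 of 8 adaptor probes that was called. Irs1, Irs2 and Grb2 were not. Of the 24 probes of the PI3K, AKT, mTOR and FOXO arm, 2 were called, both lower, Foxo3 by 1.12 (adjusted p = 0.0379 from limma) and Rheb, a GTPase that activates mTOR, by 0.60 (adjusted p = 0.0372 from limma). Akt1, Mtor and the atrophy ligase genes Fbxo32 and Trim63 were not called. Neither the insulin receptor gene Insr nor Insrr was called, at -0.14 and -0.25.

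Of the proteases that cut IGF binding proteins and the inhibitors of these proteases, the probe of Pappa2 was called lower but was found on no array, so that no fold is given. Adam12, a protease that cuts IGFBP-3 and IGFBP-5, was found on 4 TAB arrays and on no sham array and was not called (adjusted p = 0.0543 from limma). Its mean TAB level was at least 5.61-fold that of sham, a bound set by the background, while on day 28 its TAB value was below that of sham (log2 ratio -0.23, neither spot found). With 50 added before log2 its mean log2 ratio was 1.03 (adjusted p = 0.0270 from limma). Adam12 was called under 4 of the 8 other settings that kept all days and tested it. Of the 5 fits with 1 day left out, 1 called it, that without day 28 (adjusted p = 0.0231 from limma), with a mean log2 ratio of 3.64 against 2.86 with all days, both over sham values at background, and its late minus early difference was not called (adjusted p = 0.425 from limma). Htra1 had a mean log2 ratio of -0.41 and all its TAB values were below all its sham values (adjusted p = 0.0830 from limma). Igfbp1 and Igf2bp1 were below the filter. With 1 day left out, Grb14, Foxo3 and Pappa2 were each called in 1 of 5 fits, and Socs2, Rheb and Ghr in 0 of 5. The calls of Ghr, Grb14, Rheb and Pappa2 were lost after median scaling alone (adjusted p = 0.0725, 0.0630, 0.0553 and 0.0694 from limma) and after normalization within each operation, and all 6 calls were lost with probes below 1 set to 1. Without the replicate block, Rheb, Foxo3 and Pappa2 were not called (adjusted p = 0.0786, 0.0506 and 0.315 from limma), while Adam12 and the third Ghr probe were (adjusted p = 0.0245 and 0.0367 from limma).

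**Figure D4:**
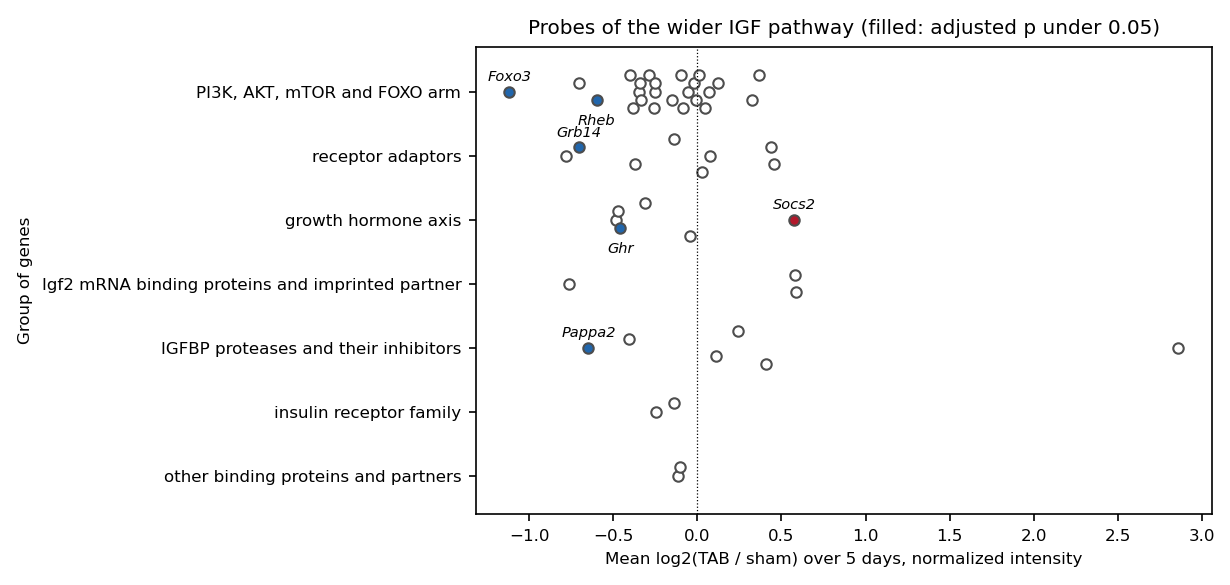
Mean log2 ratio of TAB over sham over the 5 days for the 51 probes of the wider IGF pathway, by group of genes, with the vertical position within a group without meaning. Filled circles are the 6 probes with an adjusted p under 0.05, of which Socs2 alone is higher, and the open circle near 2.86 is Adam12, whose sham spots were not found.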

How the data were processed

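The authors deposited background-subtracted 1-colour intensity for each probe, unscaled between arrays. A detection p-value was also deposited and was not used. What the deposited flag means is nowhere given, and a negative flag was taken to mark a spot that was not found. Per the labels and the methods of the study, arrays were scanned with an Agilent scanner and read in GenePix. The steps that the study describes were applied again, and the number of kept probes differed slightly from that of the study, so the filter was not matched exactly. They were median scaling, removal of probes below 1 in any sample (6447 removed, 19976 kept) and quantile normalization to the median of each rank. Here all 10 arrays were normalized together, and log2 values were tested at the probe level with limma 3.58.1 in R 4.3.3 (lmFit and eBayes, trend and robust off), with Benjamini-Hochberg adjustment over all kept probes, called at 0.05. The day after surgery, given by the labels, paired the samples as a block. Deviations from the group means correlated between the TAB and the sham sample of a day with r = 0.112 on day 3 and between 0.00148 and 0.0466 on the other days. Scripts were tested on simulated data and used Python 3.11.15, numpy 2.4.6, pandas 2.3.3 and matplotlib 3.10.9.

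All 12 member probes are named. Of the wider pathway and the marker lists, called probes and some others are named. For a bound, the mean of the brighter group was set against, for each array of the group without found spots, the higher of the lowest found intensity and the value of the probe. Members and lists were chosen with earlier results of these data known. Promoter sequences come from RefSeq (GRCm38.p6), which held windows for all 10 genes. The number of arrays limits the precision. The miRNA arrays were not analysed here.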

Additional observations from a re-analysis of the deposited data

Results flagged for a closer look

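In 2 of the 24 groups of 5 values, 1 sample stood apart from the others on the log2 scale, and chance does this in about 1 of 20 groups. Both were TAB samples of day 28. For the first Igf1 probe, the TAB value of day 28 was 7.57 on the log2 scale and the next 8.10, a gap of 0.90 of the range of the 5 values. For Igfbp2, it was 4.36 and the next 5.29, a gap of 0.836 of the range, and this was the single TAB array on which the Igfbp2 spot was not found. Without day 28 the mean log2 ratio was 1.52 for Igf1 and 1.31 for Igfbp2, and both remained called.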

How the results depend on the processing

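The number of called IGF system probes, 4 higher and 0 lower, lay between 3 and 6 higher with 0 lower under the 11 settings that kept all days. It lay between 0 and 4 higher with 1 day left out. Which members were called changed. Without the lowest tertile, or with only probes found on all arrays, Igfbp2 was not tested, and Igf1r and Igfbp5 were called. The gene-level settings counted genes, and there Igf1r was called and Igfbp7 was not. In the fit with no replicate block, that is without the pairing by day, 5 IGF system probes were called higher, the additional one being Igf1r, and 2016 of all probes were called higher and 1859 lower. It called 2 of all probes for the late minus early difference, against 0 with the block, and changed no other IGF system call. Over all probes, 1492 were called higher and 1344 lower. Lower calls were 884 after median scaling alone. With 50 added before log2, 2365 were higher and 2525 lower, 9 were called for the late minus early difference, and 11 IGF system values were DE up and 0 down, against 6 and 1. With probes below 1 set to 1, 264 were higher and 107 lower, and 2 IGF system values were DE up. Without the lowest tertile, 2303 were lower, 3 differed between late and early days, and 0 IGF system values were DE down, as with the mean of the probes of a gene. With trend and robust on, 2290 were higher, 2436 lower and 35 differed between late and early days. With only probes found on all 10 arrays, a setting chosen after seeing the data, 2345 were lower, 9 differed between late and early days, and 10 IGF system values were DE up and 0 down. With a log2 ratio of at least 1 as the threshold of a day, 21 were DE up. The share of all probes DE on a day is given only for the main setting and its rule. The DE counts under other settings therefore have no share beside them and are descriptions only. With 1 day left out, between 13 and 1455 of all probes were higher and between 0 and 1318 lower, with fewer samples in the fit. No DE count exists with a day left out, since each day is called on its own.

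Signs near 0 were not stable, and none of the values of this paragraph was called. The average effect of Igf2 was 0.0809 after median scaling alone and 0.0784 after normalization within each operation, and lay between -0.19 and 0.11 with 1 day left out. That of Igfbp4 was 0.0560 and 0.0482 under the same 2 scalings, and that of Igf2r lay between -0.0083 and 0.139 with 1 day left out. The late minus early difference of Igfbp2 was 0.135 after median scaling, 0.0653 with the mean of each rank, and -0.45 to 0.36 with 1 day left out. For Igfbp5 it was -0.0430 after median scaling and -0.12 to 0.14 with 1 day left out. For Igfbp7 it was -0.0517 after median scaling, -1.6 with the probe of the largest ratios, -0.79 with the mean of both probes, and -0.21 to 0.25 with 1 day left out, and for its second probe -3.37 to 0.17. The cause of each change was not tested.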
